A study of Mus musculus with 7 samples.

Results

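The genes of the 3 fibrinogen chains, Fga, Fgb and Fgg, lie beside each other on mouse chromosome 3, and were examined for chromatin accessible to 3 nucleases in liver. Taken were all hotspots, the stretches where cut fragments pile up above the local background, that touched the body of a fibrinogen gene or the 20 kb on either side of it. These bounds merge into a single window of 81.9 kb at chr3:82791781-82873725 (mm9). It held 20 of the 60910 Benzonase hotspots, 17 of the 57675 Cyanase hotspots and 21 of the 72286 DNase I hotspots. Joined wherever they overlapped by at least 1 bp, these formed 23 of the 94491 regions of the genome.

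The tissue was liver of male C57BL/6 mice of 8 week age, with no treatment named in the labels. Benzonase and Cyanase, endonucleases that digest DNA with little preference for its form, had been applied to intact frozen liver that was pulverized, in 3 samples each with 0.25, 1 and 4 U of enzyme. DNase I, the customary probe of open chromatin, had been applied to nuclei isolated from fresh liver, for which the labels list 1 sample while the header of the list names 2 pooled runs. The hotspot list of each nuclease pools its samples, so that no spread between mice or doses could be given, and the kind of nuclease, the starting material and the pooling cannot be told apart. The comparisons below are between 3 lists of positions and carry no test. Whole liver mixes cell types, and a hotspot does not tell in which cells it arose.

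Fibrinogen is the soluble plasma protein that thrombin turns into the fibrin of a clot. It is built from paired copies of the Aα, Bβ and γ chains, encoded by Fga, Fgb and Fgg, and is made and secreted by hepatocytes. All 3 genes are classical acute phase genes: interleukin-6 and glucocorticoids raise their transcription. HNF1 and C/EBP proteins are known to act on the promoters of Fga and Fgb. In the GENCODE annotation of mm9, Fgg (ENSMUSG00000033860.7) occupies chr3:82811781-82818975 on the plus strand with 10 exons. Fga (ENSMUSG00000028001.9) follows after 11.1 kb on the same strand, at chr3:82830075-82838036, with 6 exons in its principal transcript. Fgb (ENSMUSG00000033831.4), with 8 exons at chr3:82846169-82853725, runs on the minus strand, so that its 3′ end faces that of Fga across 8.13 kb. Plrg1 (ENSMUSG00000027998.5), which encodes a splicing factor used by every cell, starts 5.72 kb beyond the Fgb start site and points away from it, and its body fills the right end of the window.

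The promoters are shown because they lay in hotspots of all 3 nucleases and so that their letters for the liver factors named above can be compared. Each line gives the 250 bases before the RefSeq start of the gene, 5′ to 3′ along the gene, taken from the RefSeq promoter table and placed on mm9 by an exact match. Capitals mark matches, on either strand, to the short HNF1 site GTTAAT or the longer HNF1 site GTTAATNAT that contains it, the C/EBP site TTGCNNAA, the interleukin-6 response letters CTGGGAA, and the FOXA letters TGTTTAC or TGTTTGC. The stretches are chr3:82829825-82830074 (plus strand) for Fga, chr3:82853786-82854035 (minus strand) for Fgb and chr3:82811396-82811645 (plus strand) for Fgg.
Fga promoter: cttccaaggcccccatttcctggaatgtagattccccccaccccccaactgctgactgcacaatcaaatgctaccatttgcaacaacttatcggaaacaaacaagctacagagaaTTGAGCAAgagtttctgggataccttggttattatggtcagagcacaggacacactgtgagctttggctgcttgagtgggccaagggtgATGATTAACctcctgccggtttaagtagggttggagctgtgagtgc
Fgb promoter: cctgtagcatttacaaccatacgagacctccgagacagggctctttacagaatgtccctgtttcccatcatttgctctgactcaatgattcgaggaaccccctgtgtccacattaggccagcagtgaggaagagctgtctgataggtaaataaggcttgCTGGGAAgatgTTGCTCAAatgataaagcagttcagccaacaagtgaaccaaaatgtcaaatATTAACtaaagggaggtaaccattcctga
Fgg promoter: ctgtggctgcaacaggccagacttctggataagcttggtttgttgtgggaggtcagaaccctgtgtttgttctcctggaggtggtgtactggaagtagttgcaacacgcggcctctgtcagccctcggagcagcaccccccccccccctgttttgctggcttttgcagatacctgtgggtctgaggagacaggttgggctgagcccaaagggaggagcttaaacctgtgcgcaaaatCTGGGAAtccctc
All 250 bases of each promoter lay inside a hotspot of Benzonase, of Cyanase and of DNase I. The RefSeq start equals the GENCODE start for Fga, and lies 60 bases upstream of it for Fgb and 135 for Fgg.

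Fga and Fgb had HNF1 and C/EBP letters in these stretches, whereas Fgg had neither. The stretches of Fgb and Fgg end upstream of the GENCODE start, so the 3 genes were not searched at like positions from it. In Fga the letters ATGATTAAC, a match to the longer HNF1 site, stood 46 to 38 bases upstream of the start, and TTGAGCAA, a C/EBP match, 135 to 128 bases upstream. The Fgb promoter had the short HNF1 site ATTAAC at 29 to 24 bases, TTGCTCAA at 80 to 73 bases and CTGGGAA at 91 to 85 bases upstream of its RefSeq start. In Fgg only CTGGGAA was found, 13 to 7 bases before the RefSeq start. Among the 32851 RefSeq promoters of this length, 6.43% held the short HNF1 site, 0.737% the longer HNF1 site, 9.56% the C/EBP site and 9.10% the interleukin-6 letters. Letters of the STAT site TTCNNNGAA (7.02% of all promoters) and of the glucocorticoid receptor site ACANNNTGT (5.84%) also occurred in Fga and Fgb and not in Fgg. None of the 3 stretches held the TATA box letters TATAAA, and none held the CCAAT box. The bases between the RefSeq and GENCODE starts of Fgb and Fgg are not part of these stretches. FOXA letters, the HNF4 site CAAAGTCCA and the core of the CTCF site, searched as AGGGGGC or AGGTGGC, were also not found. A match of letters does not show that a protein was bound.

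The hotspots over the 3 start sites were alike in all lists. At Fga the hotspot spanned 1024 bp with Benzonase (chr3:82829434-82830457), 971 bp with Cyanase (chr3:82829501-82830471) and 1044 bp with DNase I (chr3:82829445-82830488). All lay over exon 1 of the principal transcript. At Fgb the widths were 736, 807 and 846 bp in the same order (chr3:82853464-82854199, chr3:82853392-82854198 and chr3:82853376-82854221), again over exon 1. At Fgg they were 961, 1041 and 993 bp (chr3:82811125-82812085, chr3:82811094-82812134 and chr3:82811130-82812122), over exons 1 and 2. Fgb thus had the narrowest promoter hotspot with every nuclease, and no nuclease gave the widest hotspot at all 3 genes. A start site inside a hotspot was common in the genome: 57.4% of 22365 genes with protein-coding transcripts had it with Benzonase, 55.7% with Cyanase, 47.4% with DNase I and 46.1% with all 3 nucleases. Against this background, the count of 3 of 3 fibrinogen genes alone does not set them apart.

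**Figure D1:**
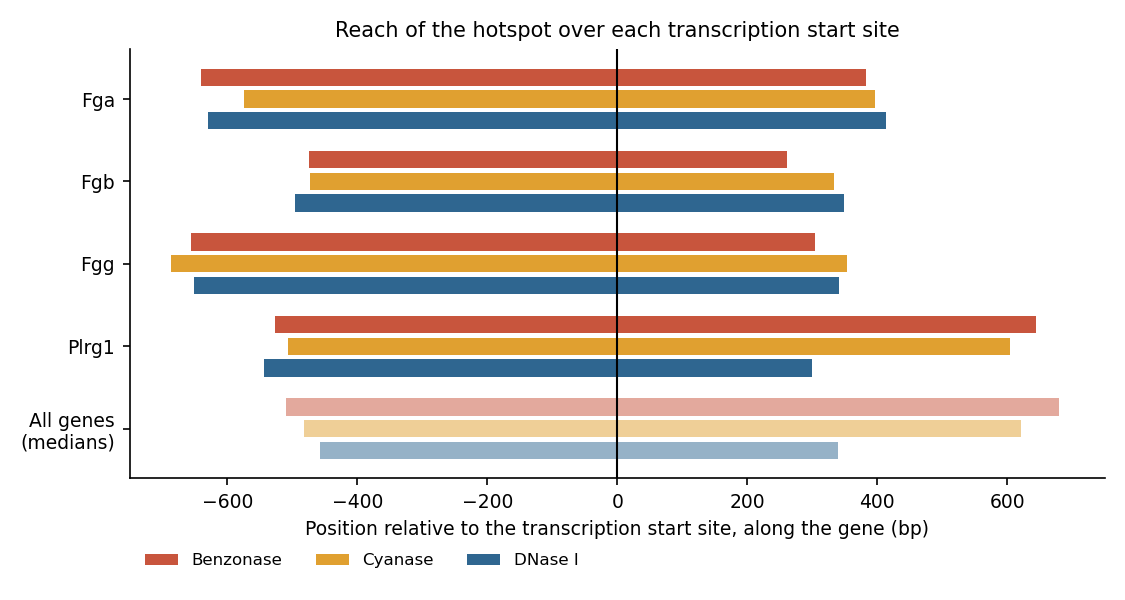
Bars give the stretch covered by the hotspot over the start site of each gene, in bp along the gene, for Benzonase, Cyanase and DNase I, with the start site at 0. The pale bars give the median reach over all genes with a hotspot at their outermost start site. At the fibrinogen genes the 3 bars end 261 to 413 bp into the gene, while at Plrg1 the Benzonase and Cyanase bars end at 645 and 604 bp and the DNase I bar at 299 bp.

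At the fibrinogen promoters, the Benzonase and Cyanase hotspots ended closer to the start site than at the median gene. Over the genes with a hotspot at their outermost start site (12091 with Benzonase, 11728 with Cyanase and 9879 with DNase I), the Benzonase hotspot at a start site reached a median of 679 bp into the gene and the Cyanase hotspot 621 bp, against 339 bp with DNase I. Into Fga, the Benzonase hotspot reached 382 bp, into Fgg 304 bp and into Fgb 261 bp. These reaches stood at the 14.5, 8.01 and 5.68 percentiles of those genes. With Cyanase the reaches were 396, 353 and 333 bp, and with DNase I 413, 341 and 349 bp. The downstream ends of the 3 lists therefore lay within 31 bp of each other at Fga, 49 bp at Fgg and 88 bp at Fgb, where over the genome the Benzonase and Cyanase hotspots ran further than those of DNase I. The DNase I ends stood at the 66.0, 50.8 and 53.0 percentiles for Fga, Fgg and Fgb. Upstream, the reaches were 473 to 687 bp, close to or above the medians of 457 to 509 bp.

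Plrg1, the neighbour that all cells use, had the other form. Its hotspots measured 1172 bp with Benzonase, 1112 bp with Cyanase and 843 bp with DNase I, and the latter ended 346 bp before the Benzonase one. Base composition divided the promoters in the same way. The ratio of observed to random CpG dinucleotides was 0.159 to 0.385 in the hotspots at the fibrinogen starts and 0.815 to 0.849 in those at Plrg1. The part of CpG content in the reach of these hotspots was not tested.

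**Figure D2:**
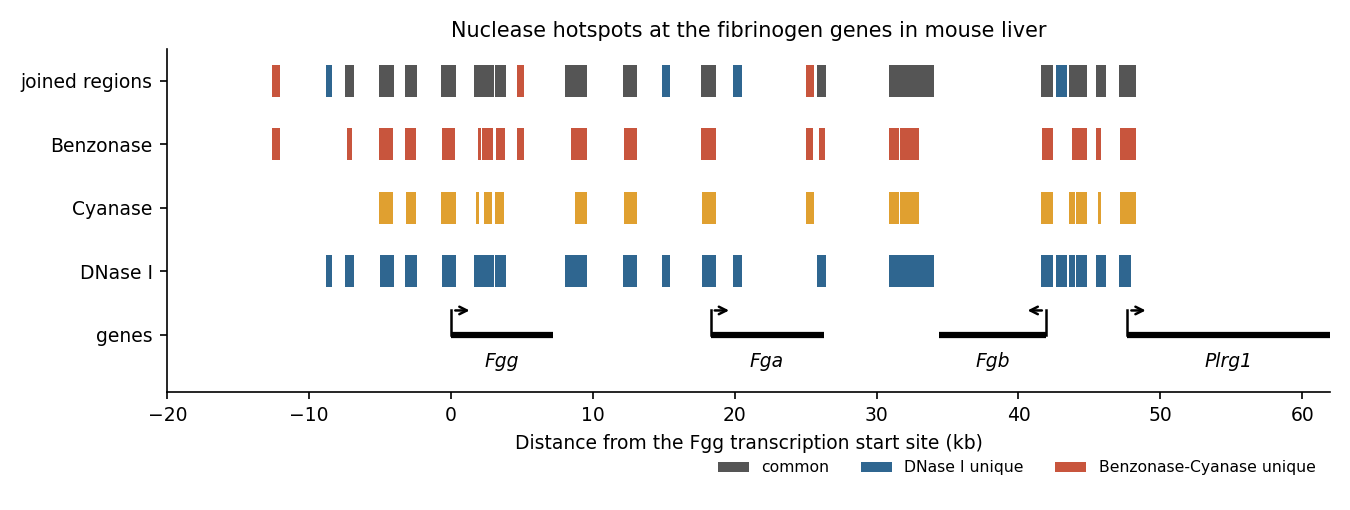
Map of the window, with distance from the Fgg start site in kb along the x axis and 1 row each for the joined regions, the Benzonase, Cyanase and DNase I hotspots and the genes, whose arrows show the start and direction. Hotspots lie upstream of Fgg, inside Fgg and Fga and in the intervals between the genes, and the Fgb body is empty past its promoter.

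Most of the open chromatin outside the promoters lay upstream of or between the genes, which is also the longer part. Without the hotspots over the 4 start sites, the hotspots covered 8.31 kb with Benzonase, 7.09 kb with Cyanase and 11.8 kb with DNase I upstream of and between the genes, against 2.93, 2.08 and 3.16 kb in the bodies of the fibrinogen genes. As shares, the hotspots covered 18.5, 15.8 and 26.3% of the 44.9 kb upstream of and between the genes. Of the 22.7 kb of bodies they covered 12.9, 9.16 and 13.9%. In the 5.72 kb between Fgb and Plrg1 they then covered 25.3% of the bases with Benzonase, 26.3% with Cyanase and 45.0% with DNase I. Between Fga and Fgb, where no start site lies, the shares were 26.7, 25.2 and 40.7%. Between Fgg and Fga they were 18.3, 16.4 and 27.8%, and in the 20 kb upstream of Fgg 13.3, 8.61 and 14.2%. DNase I covered the most of each of these intervals. With the promoter hotspots counted in, the interval between Fgb and Plrg1 was covered to 42.8, 43.4 and 63.1%.

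The 3 gene bodies were unlike each other. Fgg was covered to 33.4% by Benzonase, 25.8% by Cyanase and 34.4% by DNase I, and Fga to 15.2, 12.3 and 18.1%. Fgb was covered to only 3.47, 4.42 and 4.63%, all of it from the promoter hotspot, and no list had a hotspot further into its 7.56 kb. Over all genes the median cover of a body was 2.24, 1.91 and 1.57%. Fgg stood at the 95.4, 94.5 and 97.9 percentiles, Fga at 87.7, 86.3 and 93.6, and Fgb at 59.0, 67.0 and 70.1.

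Inside Fgg, which encodes the γ chain, the middle of the gene was open. DNase I had a single hotspot of 1357 bp over exons 5 and 6 (chr3:82813427-82814783), wider than all but 4.69% of its list. Benzonase divided the same stretch into hotspots of 257 and 725 bp, and Cyanase into hotspots of 251 and 617 bp, 251 bp being the narrowest width in any list. Exon 7 lay in a further hotspot of all 3 nucleases, of 655 bp with Benzonase, 633 bp with Cyanase and 774 bp with DNase I. Exon 8 lay in a hotspot of Benzonase alone, of 464 bp (chr3:82816455-82816918).

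Inside Fga, which encodes the Aα chain, the nucleases did not coincide. DNase I alone had a hotspot of 595 bp in the intron after exon 1 (chr3:82831685-82832279). Benzonase and Cyanase, without DNase I, had hotspots of 529 and 580 bp over exon 6 (chr3:82836789-82837317 and chr3:82836772-82837351). At the 3′ end of the gene, Benzonase (390 bp) and DNase I (587 bp) had hotspots that ran past its last annotated base, and Cyanase had none. Of the 4 regions that touched Fga, the promoter was thus the only one with all 3 nucleases.

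The widest hotspot of the window lay between the 3′ ends of Fga and Fgb. With DNase I it spanned 2389 bp (chr3:82843430-82845818), a width reached by only 0.250% of the DNase I list. The Benzonase hotspot there spanned 1369 bp and the Cyanase hotspot 1350 bp, and both began within 21 bp of the DNase I one. They ended 1019 and 1018 bp before it, so that the part nearest to Fgb was called with DNase I alone. A further region of 770 bp, with all 3 nucleases, lay directly to the left of the wide one.

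Upstream of Fgg, regions centred 4.58 and 2.82 kb from the start had hotspots of all 3 nucleases. The nearer measured 710 bp with Benzonase, 720 bp with Cyanase and 799 bp with DNase I, and the farther 1046, 1001 and 998 bp. Beyond them a region at 7.15 kb had a Benzonase hotspot of 361 bp within a DNase I hotspot of 591 bp. A DNase I hotspot of 449 bp stood alone at 8.62 kb, and a Benzonase hotspot of 536 bp at 12.3 kb. Cyanase had no hotspot farther from Fgg than the region at 4.58 kb.

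Between Fgg and Fga, regions of all 3 nucleases lay 8.82 kb downstream of the Fgg start and 5.67 kb upstream of the Fga start. The former was 1543 bp wide with DNase I, 1146 bp with Benzonase and 873 bp with Cyanase, with right ends within 27 bp of each other. The latter was 1020, 889 and 947 bp wide in the same order. A DNase I hotspot of 521 bp, 3.14 kb upstream of Fga, had no partner. Between Fgb and Plrg1, the regions centred 2.28 kb upstream of Fgb and 1.85 kb upstream of Plrg1 had all 3 nucleases. A DNase I hotspot of 724 bp, 1.09 kb upstream of Fgb, stood alone.

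Of the 23 regions, 14 (60.9%, Wilson 95% interval 40.8 to 77.8) had hotspots of all 3 nucleases, against 40.0% of all regions of the genome. A further 2 had Benzonase and DNase I, which makes 16 that were common to DNase I and at least 1 of the other enzymes. DNase I alone had 4 regions (17.4%, 6.98 to 37.1), against 28.3% in the genome. Benzonase or Cyanase without DNase I had 3 (13.04%, 4.54 to 32.1), against 26.3%. Among these, 2 were of Benzonase alone and 1 of both enzymes, and no region was of Cyanase alone. The intervals cover counting error only. They treat neighbouring regions of 1 locus as independent, so a genome share inside or outside them is not a test. The genome share of the common class was 45.4%, under the interval of the 16 common regions (69.6%, 49.1 to 84.4). It was also under the interval where hotspots had to share 50% of both widths (17 of 26, 46.2 to 80.6, against 37.2%). It lay inside the interval where hotspots within 150 bp were also joined (14 of 21, 45.4 to 82.8, against 46.2%). The same held where the hotspots narrower than the first quartile of each list were dropped (13 of 20, 43.3 to 81.9, against 52.3%). For all 3 nucleases the genome share lay just under the interval, also with the 50% rule (14 of 26, 35.5 to 71.2, against 32.5%). It was inside with the 150 bp joining (12 of 21, 36.5 to 75.5, against 40.7%) and with the narrow hotspots dropped (13 of 20, 43.3 to 81.9, against 46.8%). For the regions of DNase I alone and of Benzonase or Cyanase without DNase I it lay inside the intervals.

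Counted in bases, the lists overlapped more here than over the genome. The 3 lists together covered 20.9 kb of the window, of which 54.9% was shared by all 3, against 39.1% over the genome. DNase I alone had 24.5%, close to the 26.5% of the genome. Benzonase or Cyanase without DNase I had 10.6%, against 28.4%. Benzonase shared 86.1% of its bases with DNase I and Cyanase 91.8%, while DNase I shared 69.7% with Benzonase and 64.3% with Cyanase. The bases absent from DNase I were thus few, and those absent from Benzonase and Cyanase were in the share that the genome has.

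Where hotspots overlapped, Benzonase and Cyanase had nearly the same bounds. In 17 pairs the starts differed by a median of 31 bp and the ends by 19 bp, against 38 bp for each over all pairs. In 18 pairs of Benzonase and DNase I the medians were 73.5 and 63.5 bp, against 85 bp for each. In 16 pairs of Cyanase and DNase I they were 34.5 and 51 bp, against 81 bp. DNase I was the wider in 14 of 18 pairs with Benzonase, where it was wider in 46.6% of pairs over the genome, and in 11 of 16 pairs with Cyanase, against 51.6%. A hotspot that overlapped several others entered several pairs, as at Fgg exons 5 and 6.

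**Figure D3:**
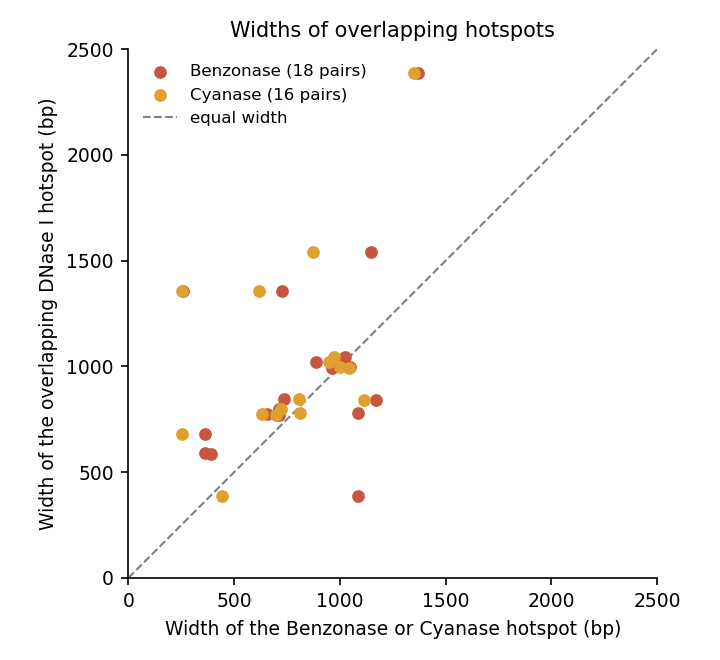
Each point is a pair of overlapping hotspots in the window, with the width in bp of the Benzonase or Cyanase hotspot on the x axis and that of the DNase I hotspot on the y axis, and the dashed line marks equal width. Of the points, 14 of 18 for Benzonase and 11 of 16 for Cyanase lie above the line, and the highest is the 2389 bp hotspot between Fga and Fgb.

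Hotspots at the fibrinogen genes were wider at the median than those of their own list. The median width in the window was 718 bp with Benzonase, 807 bp with Cyanase and 778 bp with DNase I, against 652, 641 and 649 bp over the lists. Above the median of their own list were 13 of 20, 11 of 17 and 15 of 21 hotspots. The upper quartile of the list was passed by 7, 6 and 9 of them.

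Base composition differed between the classes of regions in the window. The 4 regions of DNase I alone had a GC content of 34.4 to 40.8%, below that of the 5 kb on either side in 4 of 4, as in 55.2% of all regions of DNase I alone. The 3 regions of Benzonase or Cyanase without DNase I had 51.5, 54.8 and 60.6%, above their surroundings in 3 of 3, as in 95.6% of that class over the genome. The 16 common regions had 40.5 to 55.6%, with a median of 44.7%, and 12 of 16 lay above their surroundings, as in 77.0% of all common regions. Over the genome the medians of these classes were 42.3, 54.3 and 48.8%. The fibrinogen regions hence had the order of the whole lists. The common regions and those of DNase I alone (median 39.3%) were poorer in GC than usual for their class.

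**Figure D4:**
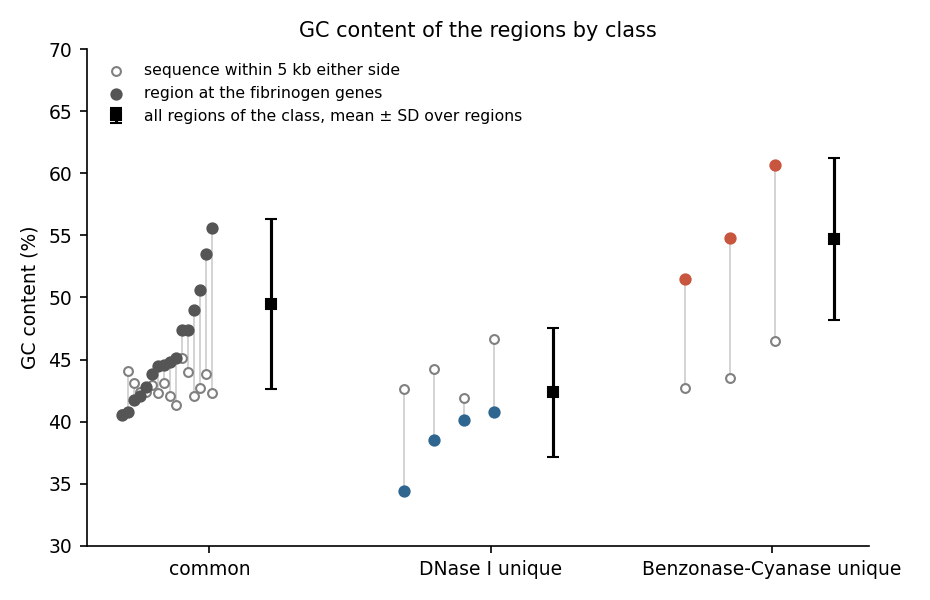
GC content in percent of the 23 regions, by class, as filled points, joined to that of the 5 kb on either side as open points, and the mean with its SD over all regions of the class as black squares. The regions of DNase I alone lie under their surroundings (34.4 to 40.8%), and those of Benzonase or Cyanase without DNase I lie above them (51.5 to 60.6%).

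The same order was seen base by base inside the common regions. Bases covered by DNase I alone there (2.83 kb) had a GC content of 40.9%, bases covered by all 3 nucleases (11.5 kb) 46.1%, and bases of Benzonase or Cyanase without DNase I (0.641 kb) 50.1%. Bases of the window in no hotspot had 42.9%. The part of base composition in which nuclease called a region was not tested.

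To show what these differences look like in letters, the 250 bases around the centre of 4 regions outside exons are given on the plus strand of mm9. The first is the Benzonase region 12.3 kb upstream of Fgg (chr3:82799326-82799575). The next are the DNase I regions in the first intron of Fga (chr3:82831857-82832106) and 1.09 kb upstream of Fgb (chr3:82854690-82854939). The last is the region of all 3 nucleases just before the widest hotspot (chr3:82842914-82843163). Capitals mark the same sites as in the promoters.
Benzonase region upstream of Fgg: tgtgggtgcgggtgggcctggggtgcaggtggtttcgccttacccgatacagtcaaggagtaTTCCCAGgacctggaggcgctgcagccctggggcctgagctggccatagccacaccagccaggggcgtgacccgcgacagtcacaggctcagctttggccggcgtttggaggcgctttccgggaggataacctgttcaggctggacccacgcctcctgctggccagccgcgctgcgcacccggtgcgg
DNase I region in Fga: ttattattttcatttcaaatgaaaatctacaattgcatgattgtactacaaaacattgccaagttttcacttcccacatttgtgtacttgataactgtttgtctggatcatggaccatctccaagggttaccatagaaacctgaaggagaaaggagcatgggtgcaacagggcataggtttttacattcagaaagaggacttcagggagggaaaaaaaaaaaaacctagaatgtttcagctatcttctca
DNase I region upstream of Fgb: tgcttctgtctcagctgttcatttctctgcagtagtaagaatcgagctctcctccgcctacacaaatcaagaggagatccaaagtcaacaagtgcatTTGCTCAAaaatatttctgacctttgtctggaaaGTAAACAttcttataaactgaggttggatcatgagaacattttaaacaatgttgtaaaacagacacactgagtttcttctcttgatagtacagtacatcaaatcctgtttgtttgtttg
Common region between Fga and Fgb: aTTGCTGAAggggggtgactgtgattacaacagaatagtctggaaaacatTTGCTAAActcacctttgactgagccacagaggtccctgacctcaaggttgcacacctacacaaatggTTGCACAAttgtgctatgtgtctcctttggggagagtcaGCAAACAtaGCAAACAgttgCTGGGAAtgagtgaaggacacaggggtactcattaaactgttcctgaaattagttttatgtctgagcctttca
The Benzonase stretch had a GC content of 67.6% and 17 CpG, the 2 DNase I stretches 36.8 and 37.2% with 0 and 2 CpG, and the common stretch 44.4% with 0 CpG. Of these 4, the common stretch was the richest in liver factor letters, with 3 C/EBP matches (TTGCTGAA, TTGCTAAA and TTGCACAA), 2 FOXA matches and 1 interleukin-6 match. It does not stand for its class, as the centre of the widest region beside it held none of these letters. The centre of the DNase I region 3.14 kb upstream of Fga, not shown, held 1 C/EBP and 1 interleukin-6 match. The DNase I region upstream of Fgb had 1 C/EBP and 1 FOXA match, and the one in Fga had none of these letters.

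Over the centres of all 23 regions, the C/EBP, interleukin-6 and short HNF1 letters were more frequent than over the genome. The C/EBP site was found in 9 of 23 centres (39.1%), against 15.3% of the centres of all 94491 regions. The interleukin-6 letters were in 6 (26.1%, against 9.17%) and the short HNF1 site in 5 (21.7%, against 8.19%). These included the promoters of Fga and Fgb for C/EBP and HNF1, and those of Fgb and Fgg for interleukin-6. The longer HNF1 site was in 1 centre (4.35%, against 1.62%), that of the Fga promoter. STAT letters were in 3 centres (13.04%, against 7.76%) and those of the glucocorticoid receptor in 3 (13.04%, against 8.07%). Near to the genome were FOXA in 3 (13.04%, against 12.6%), CCAAT in 8 (34.8%, against 31.1%) and TATAAA in 2 (8.70%, against 9.30%). Less frequent than over the genome were the CTCF core in 1 (4.35%, against 10.8%) and HNF4 in 0 (against 1.41%). With 23 centres these are descriptions of the letters and carry no test. Base composition was not matched between these centres and those of the genome.

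The fibrinogen genes stood in an island of open chromatin. All 23 regions lay within 60.9 kb, from 82799183 to 82860089 on chromosome 3, a density of 37.8 regions per 100 kb. To the left of them the next hotspot was 91.0 kb away with Benzonase, 91.0 kb with Cyanase and 118 kb with DNase I. To the right it was 72.7 kb away with Benzonase, 322 kb with Cyanase and 99.3 kb with DNase I. Raising the flank from 20 to 50 kb hence added no hotspot of any list. Of the 19437 single genes with at least 1 region within 20 kb of their own body, 11.7% gained none up to 50 kb. To gain no region between 20 and 50 kb was thus not rare among single genes. Gaps as long as those on either side of the island were not compared with the genome. Taken singly, the fibrinogen genes rose to 23 regions each, from 17 at Fga, 12 at Fgb and 16 at Fgg. The share is therefore not matched to the joined window.

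The density was high compared with other genes. Counted over each gene with its own 20 kb flanks, Fga had 17 regions, or 35.4 per 100 kb, Fgg 16 or 33.9, and Fgb 12 or 25.2. The median over 22365 genes was 5.45 per 100 kb, and Fga ranked 8, Fgg 13 and Fgb 163 of all. The flanks of the 3 genes overlap, so these are not independent counts. With flanks of 50 kb the densities were 21.3, 21.5 and 21.4 for Fga, Fgg and Fgb, at ranks 44, 37 and 41. With flanks of 10 kb they were 32.2, 40.4 and 32.7, at ranks 163, 33 and 150, so that both the ranks and the order of the 3 genes depended on the flank.

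**Figure D5:**
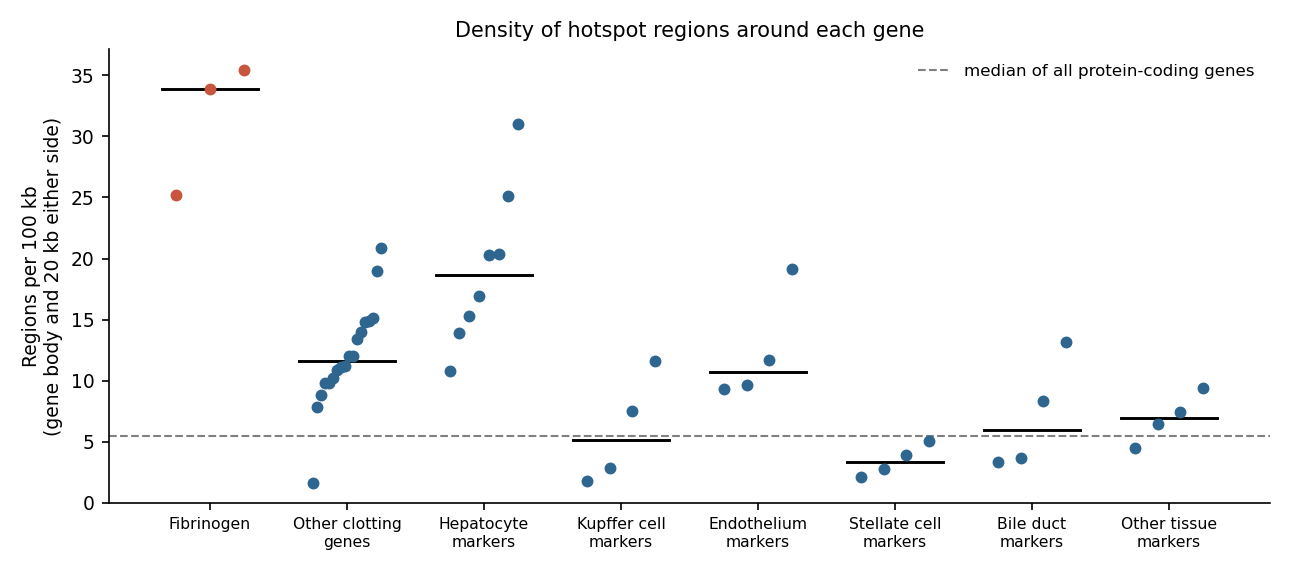
Regions per 100 kb of gene body with 20 kb on either side, 1 point per gene, for the fibrinogen genes, the other clotting genes and the marker lists, with a bar at the median of each list and a dashed line at the median of all genes, 5.45. The fibrinogen genes (25.2 to 35.4) lie above all 18 other clotting genes (1.61 to 20.9).

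The other clotting factors and inhibitors that the liver secretes gave the nearest comparison. Of 18 such genes, 18 had a start site in a Benzonase hotspot, 17 in a Cyanase hotspot and 18 in a DNase I hotspot, against 57.4, 55.7 and 47.4% of all genes. The exception was F13b, the carrier chain of factor XIII, which had no Cyanase hotspot at its start and only 1 region in all. The list had a median of 11.6 regions per 100 kb, and its densest member was Serpinf2, which encodes the plasmin inhibitor, with 20.9. Most regions were at Klkb1 (15 regions), which encodes prekallikrein, F5 (13), the gene of factor V, Plg (12), that of plasminogen, and Serpinf2 (10). Each fibrinogen gene was denser than any of these clotting genes. Among 8 hepatocyte markers, however, Apoa1 had 31.0 and Alb 25.1 regions per 100 kb, the first above Fgb (25.2) and the second next to it.

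Marker genes of the cell types of the liver were set beside the shares of all genes, 57.4% with Benzonase, 55.7% with Cyanase, 47.4% with DNase I and 46.1% with all 3. The start sites of 8 of 8 hepatocyte markers were in hotspots of all 3 nucleases, with a density of 10.8 to 31.0 regions per 100 kb and a median of 18.6. Of 4 Kupffer cell markers, 1 was found with Benzonase, 1 with Cyanase and 4 with DNase I. Of 4 stellate cell markers, 2, 4 and 1 were found, of 4 endothelial markers 2, 2 and 0, and of 4 bile duct markers 2, 1 and 1. Of 4 genes of other tissues only Gfap was found, with Cyanase. In which cells the hotspots at these markers arose cannot be told, and the part of other liver cells in the fibrinogen regions was not tested.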

How the data were processed

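The authors treated liver of C57BL/6 mice with Benzonase, Cyanase or DNase I, placed the sequence tags on mm9 (Eland or Bowtie) and combined all samples of a nuclease. The paper names a false discovery rate of 0% and a cutoff on tag density set at its mode. Each deposited list holds more hotspots than the paper reports for its nuclease. The 3 deposited lists give chromosome, start and end only, and per the file headers are input adjusted and unmerged. The DNase I header names 2 pooled runs, while the labels hold 1 DNase I sample. Tag numbers were not used here, so depth and replicate spread are unknown. The position in each header is 1 base lower than the first interval read as BED, so printed coordinates, counted from 1, may be shifted by 1 base. There were 0 columns of other samples.

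Hotspots that overlapped by at least 1 bp were joined into regions (Python 3.11.15, pandas 2.3.3, pysam 0.24.0), and bedtools 2.31.1 gave the same 94491 regions. Joining was tested on simulated data. Genes came from GENCODE M1 on NCBIM37 (mm9), without the mitochondrial chromosome, and promoter letters from the RefSeq table, of which 3 of 3 fibrinogen entries matched mm9 exactly. Percentiles are over 22365 genes or over a whole list. Shares have Wilson 95% intervals. The genes, lists and motifs were chosen with earlier results of these data known. Named were the fibrinogen genes with every hotspot of the window, the other gene in the window, and of the clotting list the genes that lacked a hotspot at the start and the 4 with the most regions. Alternatives were the overlap rule, the joining distance, narrow hotspots left out, the choice of start sites, the motif window and the flank, of which the effect of the flank on density was chosen after seeing the data.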

Additional observations from a re-analysis of the deposited data

How the results depend on the processing

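Of 71 values recomputed under alternatives, 18 moved, by which is meant by over 1.5 times for counts and densities, or outside the 95% binomial interval of the first value for shares of all genes and medians, and 53 did not. Where hotspots had to share 50% of both widths to be joined, 5 regions were of Benzonase or Cyanase without DNase I in place of 3, more than the 4 of DNase I alone, of 26 regions in all, and 14 still had all 3 nucleases (53.8%, against 32.5% over the genome). The share of all genes with a start in a hotspot of Benzonase, Cyanase or DNase I was 39.0, 37.8 and 32.2% over all annotated transcripts, 59.9, 58.2 and 50.2% with hotspots within 500 bp counted, and 54.1, 52.4 and 44.2% with only the outermost start of each gene. With all bases of a region searched in place of its central 250, the letters of STAT were in 6 regions, FOXA in 8, the glucocorticoid receptor in 7, the CTCF core in 2, TATAAA in 9 and CCAAT in 15. With flanks of 50 kb, an alternative chosen after seeing the data, the densities were 21.3 regions per 100 kb at Fga and 21.5 at Fgg. No paired analysis was possible because each list pools its samples and no result comes from a test. Depth per hotspot is unknown, so that a hotspot missing from a list cannot be told from one just under the threshold of that list.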

Other observations

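To the left of the island, Benzonase had a hotspot of 641 bp (chr3:82707588-82708228) and Cyanase one of 624 bp (chr3:82707585-82708208) at Lrat, which encodes the enzyme that esterifies retinol in stellate cells. DNase I had none at the Lrat start, and its nearest on that side was a hotspot of 599 bp (chr3:82680208-82680806) within Rbm46. To the right, the nearest were of 365 bp with Benzonase, 357 bp with Cyanase and 643 bp with DNase I, at 3 separate places, of which the Benzonase one touched Gm10710 and the others touched no annotated gene.

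The 7 genes with more regions per 100 kb than Fga (35.4) were D830046C22Rik (43.9), Ass1 (42.0), Sfi1 (41.3), Cyp2w1 (40.5), Tgoln1 (39.1), Gm17379 (37.3) and Cyp8b1 (35.8). They are named after their values were seen.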
